A study of Mus musculus with 75 samples.

Results

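A set of 10 genes of the antioxidant programme controlled by the transcription factor NRF2 were followed through 75 mouse liver RNA libraries: Slc7a11, Nqo1, Gclc, Gclm, Srxn1, Txnrd1, Hmox1, G6pdx, Gpx2 and Osgin1. These 10 genes were taken by gene symbol from the 55536 genes of the deposited count table, and all 10 were found. The list was drawn up with earlier results of these same livers in view. Slc7a11 in particular had already been named for 3 comparisons (5-month high-risk against low-risk, tumor against uninvolved, tumor against vehicle), and its values there are given as a description with no test. Its other comparisons share livers with those 3, so tests of Slc7a11 there are not independent of the choice. It is also described without a test wherever 5-month high-risk or uninvolved livers enter.

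The livers came from C57Bl/6 mice recorded as male, born to dams whose drinking water held either vehicle or the organotin tributyltin (TBT). The dose was 0.5 mg/kg of body weight daily, a water concentration of 3.07 µM, and it ended when pups were weaned. The labels name no engineered allele. At 3 weeks there were 8 vehicle libraries from 7 mice and 8 TBT livers. The 5-month set held 8 livers of vehicle mice and, from TBT mice, 16 labelled low-risk and 10 labelled high-risk, where risk means risk of a liver tumor; how risk was assigned at that age was not given in the sources used here. At 10 months there were 6 vehicle livers, 5 low-risk TBT livers, 6 libraries of uninvolved liver and 7 tumors from TBT mice, and 1 vehicle library labelled as a tumor. Each library is bulk tissue, in which more cells of a type and more RNA per cell cannot be told apart.

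NRF2 is normally held by KEAP1 and handed to a CUL3 ubiquitin ligase for destruction. Oxidants and electrophiles modify KEAP1, and NRF2 then accumulates, pairs with a small MAF protein and binds antioxidant response elements near genes for glutathione synthesis, quinone reduction, thioredoxin recycling and NADPH supply. In the liver this programme is known for detoxification, and its constitutive activation is known in a share of liver cancers. Slc7a11 encodes the transport subunit of system xc-, which brings in cystine in exchange for glutamate and so feeds glutathione synthesis. The gene is also a textbook target of ATF4, the transcription factor of amino acid shortage.

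The sequences before the starts of these genes show where letters of these control elements occur. RefSeq promoter windows (build GRCm38.p6, 250 bases before to 50 after each start) were held for 8 of the 10 genes, in 10 windows. They were searched on both strands for the core of the antioxidant response element in its forms TGACNNNGC and TGAGNNNGC, and for the ATF4-type amino acid response element TGATGNAA. Either antioxidant form occurred in 6 of the 10 windows, which belong to 6 of these 8 genes (Slc7a11, Gclm, Srxn1, Txnrd1, G6pdx and Osgin1), and in 27.8% of all 32851 windows. TGATGNAA occurred in the window of Slc7a11 alone among the 8, and in 3.97% of all windows. The windows of Nqo1 and Gpx2 held none of the 3 forms. The 250 bases before the start are shown for 3 genes that were higher in high-risk livers and in tumors, with and without a match: Slc7a11 (chr3:50443614-50443863, minus strand), Srxn1 (chr2:152105274-152105523, plus strand) and Nqo1 (chr8:107403206-107403455, minus strand). For 4 other genes, 30 bases around the match are shown. Capitals mark the matches.
Slc7a11 upstream: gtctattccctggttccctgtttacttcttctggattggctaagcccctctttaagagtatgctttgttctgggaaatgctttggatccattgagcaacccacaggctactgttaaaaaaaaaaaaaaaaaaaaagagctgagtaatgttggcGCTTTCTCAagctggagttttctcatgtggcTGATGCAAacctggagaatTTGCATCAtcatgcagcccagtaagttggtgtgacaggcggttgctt
Srxn1 upstream: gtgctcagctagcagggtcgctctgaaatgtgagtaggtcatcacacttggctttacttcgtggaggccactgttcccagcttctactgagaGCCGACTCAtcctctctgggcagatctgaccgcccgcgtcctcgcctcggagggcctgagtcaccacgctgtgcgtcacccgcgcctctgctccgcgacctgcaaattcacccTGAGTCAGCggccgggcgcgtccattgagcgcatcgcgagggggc
Nqo1 upstream: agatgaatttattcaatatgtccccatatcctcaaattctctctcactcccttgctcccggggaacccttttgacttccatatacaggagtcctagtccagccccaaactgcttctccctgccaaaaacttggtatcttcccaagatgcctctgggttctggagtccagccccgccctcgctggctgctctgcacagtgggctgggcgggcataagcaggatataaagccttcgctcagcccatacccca
Gclm site (chr3:122245413-122245442, plus strand): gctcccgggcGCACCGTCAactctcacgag
Osgin1 site (chr8:119437038-119437067, plus strand): aggggcccctGCTGACTCAcgcttatgaaa
Txnrd1 site (chr10:82859104-82859133, plus strand): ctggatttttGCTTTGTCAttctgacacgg
G6pdx site (chrX:74428918-74428947, minus strand): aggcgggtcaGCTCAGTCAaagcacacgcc
The Slc7a11 window held 1 antioxidant match, 97 bases before the start, and a pair of TGATGNAA matches, 66 and 47 bases before it and on opposite strands. The Srxn1 window held antioxidant matches 158 and 45 bases before the start and another 29 bases after it. The matched windows of G6pdx, Osgin1 and Txnrd1 lie at RefSeq starts inside the annotated genes, and both other windows of Txnrd1 held no antioxidant match. A match is only a run of letters, and no binding was measured here.

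Total counts per library ran from 2.83 to 45.4 M, and levels are given as CPM, counts relative to the library's TMM-scaled total in M. Both libraries of 3-week vehicle mouse 3 were summed, as were uninvolved libraries 3 and 6, which left 7 and 5 samples in these groups. The uninvolved pair differed by 1.26 times the counting variance, against 3.24 times or more for every other pair within a group. There were 6 libraries that stood apart by depth under 5 M, over 35000 genes detected or over 10% mitochondrial counts: 1 of 3-week vehicle 3, 5-month vehicle 9, low-risk 16, high-risk 10 and 15, and the vehicle library labelled as a tumor. In 1 of the 3-week TBT libraries, number 4, Xist stood at 348 CPM against 1.76 or less in the other 7, which goes against its male label. Xist was also at 84.6 CPM in 5-month low-risk 24, beside Y-linked genes at 237 CPM, and at 1.59 CPM or less in the other low-risk livers. Hepatocyte markers (Alb, Apoa1, Ttr, Cps1, Hnf4a, Apob) together stood at 63505 CPM or more in every sample. The 5-month low-risk liver 2 carried intestinal markers: Cdx2 was at 6.69 CPM against at most 0.0782 in the other low-risk livers, and Lgals4 at 153 against at most 26.3. Results that change without any of these libraries are given with and without them.

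Compared per kilobase of exon, the 10 genes differed widely in level. In 10-month vehicle livers Gclc, the catalytic subunit of glutamate-cysteine ligase, was highest, at a mean of 130 CPM per kb (range 108 to 145, n = 6). Osgin1, Gclm and Txnrd1 lay between 21.8 and 36.6 CPM per kb on average, and Nqo1 at 4.14 CPM per kb. Slc7a11 was lowest, at 0.00098 CPM per kb, with 2 counts in all 6 livers together. The members' ranges in CPM are shown by group in the plots of levels.

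**Figure D1:**
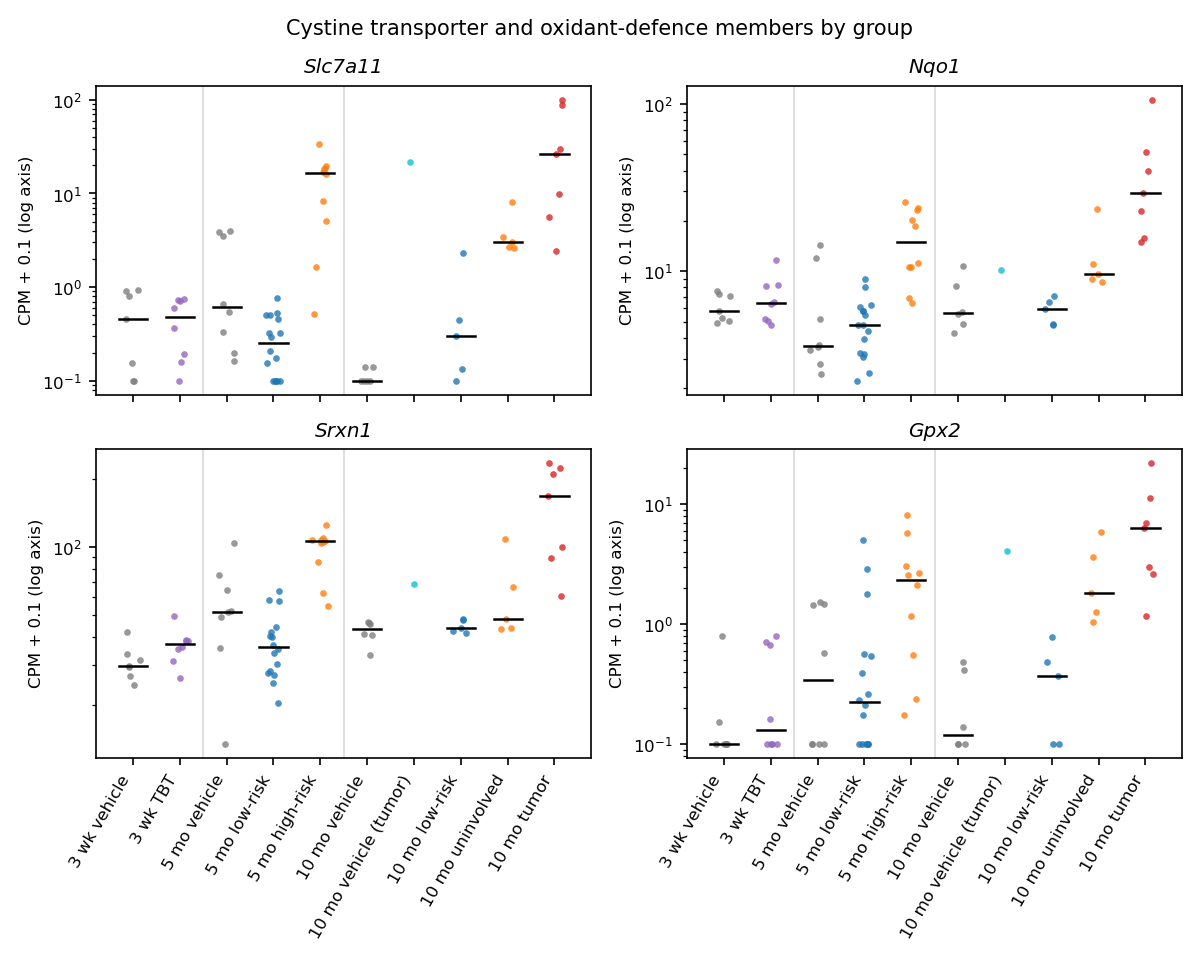
CPM plus 0.1 on a log axis (y) for Slc7a11, Nqo1, Srxn1 and Gpx2 in each group (x), where each point is a sample and each bar a group median. Slc7a11 medians are 16.5 CPM in 5-month high-risk livers and 26.4 CPM in tumors, and at most 0.508 CPM in every 3-week TBT, low-risk and other vehicle group. The 1 vehicle library labelled as a tumor stands at 21.6 CPM.

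**Figure D2:**
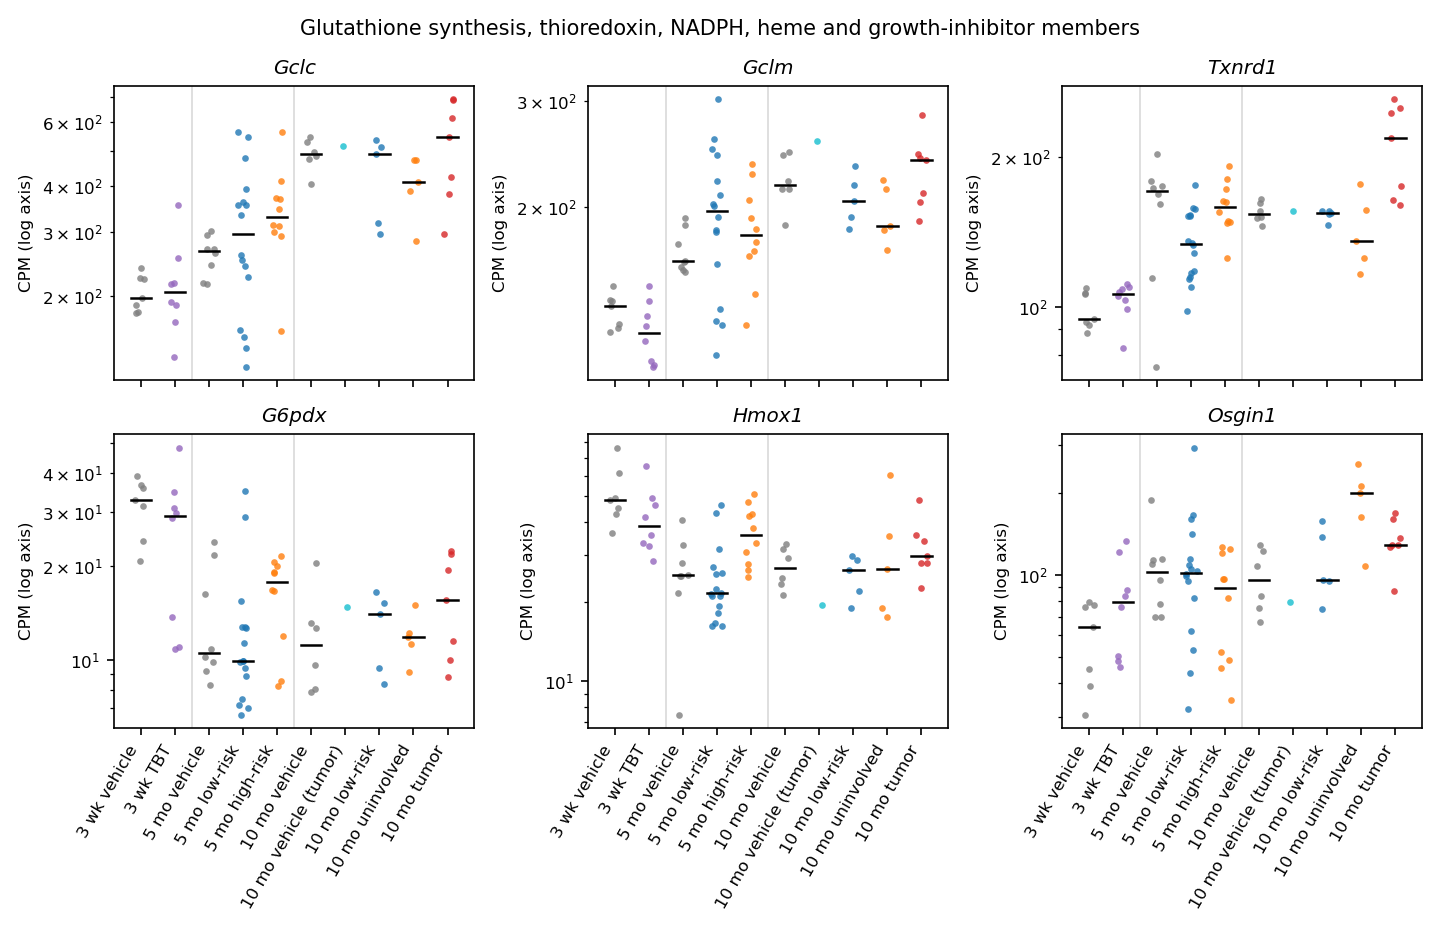
CPM on a log axis (y) for Gclc, Gclm, Txnrd1, G6pdx, Hmox1 and Osgin1 in each group (x), where each point is a sample and each bar a group median. G6pdx and Hmox1 are higher at 3 weeks, where vehicle medians are 32.7 and 48.4 CPM, than in later vehicle livers.

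At 3 weeks, before any label of risk, TBT livers were compared with vehicle livers to see whether exposure by itself moved these genes. None of the 8 members that passed the filter on low counts was called by edgeR at an adjusted p under 0.05, and 0% of all 14050 genes tested were. None of the 8 reached an unadjusted p under 0.05 either, against 474 of all genes, and DESeq2 called 0 members. Slc7a11 and Gpx2 did not pass the filter. Slc7a11 ran from 0 through a median of 0.381 to 0.643 CPM in 8 TBT livers and from 0 through 0.355 to 0.842 CPM in 7 vehicle livers. Srxn1, sulfiredoxin, which repairs overoxidized peroxiredoxins, ran from 26.1 through 37.0 to 49.5 CPM with TBT and from 24.4 through 29.5 to 41.7 CPM with vehicle. The Srxn1 groups overlapped, with 7 of 8 TBT livers above the vehicle median (log2 fold change 0.24, SE 0.12). Without the library labelled TBT 4 the count of members called was again 0.

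At 5 months the question was which genes separated high-risk from low-risk exposed livers. Besides Slc7a11, which is described without a test, Nqo1, Srxn1, Hmox1 and Txnrd1 were called higher in high-risk livers. None of the 9 others was called lower, and Gclc, Gclm, G6pdx, Gpx2 and Osgin1 did not pass. Of all genes 38.9% were called in either direction, 20.3% higher and 18.5% lower, and nothing is read from the members' count. The median log2 fold change of the 10 was 0.42, beside -0.01 over all genes tested. Leaving out the technically deviating libraries, or low-risk 24, changed none of these calls. Low-risk 24 was the highest low-risk liver for Slc7a11, Txnrd1 and Hmox1.

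Slc7a11 ran from 0.415 through a median of 16.5 to 33.8 CPM in the 10 high-risk livers, and from 0 through 0.154 to 0.676 CPM in the 16 low-risk livers. In 5 low-risk livers it had no count, and 9 of 10 high-risk livers exceeded the highest low-risk value. High-risk 22 (0.415 CPM) was the exception, and high-risk 1 (1.52 CPM) came next. The fitted log2 fold change was 6.06 (SE 0.66), and it was 5.85 within sequencing batch 1 and 6.09 within batch 2.

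Nqo1, the quinone reductase that is the classic readout of NRF2, ran from 6.39 through 14.9 to 25.9 CPM in high-risk livers. In low-risk livers Nqo1 ran from 2.11 through 4.67 to 8.90 CPM, and only the lowest high-risk livers, 15 and 1, fell within that range. Nqo1 rose by a log2 fold change of 1.66 (SE 0.29, adjusted p = 2.4e-05). Within batch 2 the Nqo1 difference was 1.91 (SE 0.26), and within batch 1, with 3 high-risk livers, it was 0.94 (SE 0.54) and did not pass, with adjusted p = 0.368.

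Srxn1 ran from 54.5 through 106 to 125 CPM in high-risk livers and from 20.3 through 35.8 to 63.9 CPM in low-risk livers. Its high-risk livers 1 and 22 overlapped the low-risk range, and the other 8 lay above it. Srxn1 rose by 1.39 (log2, SE 0.19, adjusted p = 9.8e-07). The value was 1.40 within batch 2 and 1.24 within batch 1, where the adjusted p was 0.078.

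The other members called had smaller differences. Hmox1, heme oxygenase, which breaks down heme to biliverdin, iron and carbon monoxide, ran from 24.8 through 35.8 to 50.9 CPM in high-risk livers and from 16.1 through 21.5 to 46.5 CPM in low-risk livers. Hmox1 rose by 0.56 (log2, SE 0.17, adjusted p = 0.0074), while it was 0.61 within batch 1 and 0.49 within batch 2, neither of which passed (adjusted p = 0.255 and 0.0817). Txnrd1, cytosolic thioredoxin reductase, ran from 125 through 159 to 192 CPM against 97.9 through 134 to 175 CPM. Txnrd1 rose by 0.28 (log2, SE 0.10, adjusted p = 0.03), and the call ended within batch 1 (0.10) and batch 2 (0.31) and with no filter on low counts (0.25). It also ended without high-risk 12, 13 or 17, at differences of 0.25, 0.25 and 0.24 (adjusted p between 0.0547 and 0.07).

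Gpx2, a glutathione peroxidase best known from gut epithelium, ran from 0.0762 through 2.24 to 8.01 CPM in high-risk livers and from 0 through 0.124 to 4.98 CPM in low-risk livers. The highest low-risk value belonged to low-risk 2, the liver with intestinal markers, which was also the highest low-risk liver for Nqo1 (8.90 CPM) and Srxn1 (63.9 CPM). The Gpx2 difference was 1.88 (log2, SE 0.88, adjusted p = 0.088) with all livers and 2.77 (SE 0.82, adjusted p = 0.0071) without low-risk 2. It also passed without low-risk 8, at 2.34 (SE 0.93, adjusted p = 0.0442).

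The transcripts of both subunits of glutamate-cysteine ligase did not pass between the 5-month risk groups. Gclc ran from 160 through 329 to 562 CPM in high-risk livers and from 128 through 296 to 564 CPM in low-risk livers, so the ranges nearly coincided. The log2 difference of Gclc was 0.15 (95% interval -0.25 to 0.55). For Gclm, the modifier subunit of the same ligase, it was -0.07 (95% interval -0.32 to 0.18), and for G6pdx, which makes NADPH in the pentose phosphate pathway, 0.26 (95% interval -0.17 to 0.69). Osgin1, an oxidative stress induced growth inhibitor, stood at -0.42 (SE 0.26).

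Against 5-month vehicle livers Srxn1 and Nqo1 were called higher in high-risk livers, and Slc7a11 is described only, since these same high-risk livers entered its choice. The background was 15.8% of genes called, 8.47% higher and 7.38% lower, and leaving out the technically deviating libraries ended neither call. Vehicle livers themselves were uneven. Slc7a11 stood at 3.88, 3.8 and 3.4 CPM in vehicles 4, 6 and 9 and at 0.566 CPM or less in the other 5 vehicles. Vehicles 4 and 6 were also the highest for Srxn1 (103 and 75.0 CPM) and Nqo1 (11.9 and 14.2 CPM), and vehicle 9 is the library of 2.83 M counts.

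The fitted difference of Slc7a11 between high-risk and vehicle livers was 3.18 (log2, SE 0.81), and 2.60 within batch 1. Srxn1 was 0.98 higher (SE 0.26, adjusted p = 0.0092), and 0.77 within batch 1, where it did not pass. Nqo1 was 1.22 higher (SE 0.39, adjusted p = 0.03). Within batch 1 the Nqo1 difference was 0.60 (adjusted p = 0.649), and with the 2 groups fitted alone 0.95 (adjusted p = 0.208). Leaving out vehicle 1, 2, 3, 5 or 8 gave 1.10 to 1.13 and ended the call (adjusted p from 0.061 to 0.0955). With no filter on low counts neither Srxn1 nor Nqo1 passed. Batch 2 held 1 vehicle liver, so no within-batch value could be given there.

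Low-risk and vehicle livers of 5 months gave 0 members called by edgeR, as it called 0% of all genes. Slc7a11 was the 1 member with an unadjusted p under 0.05, beside 934 genes in all, and it was lower in low-risk livers (log2 fold change -2.88, SE 0.82, adjusted p = 0.39). DESeq2 called 52 genes, Slc7a11 among them (log2 fold change -3.24, adjusted p = 0.0426). These low-risk livers entered the choice of Slc7a11, so its tests here are not independent of that choice. Without vehicles 4, 6 or 9 in turn, edgeR called 0 members.

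Marker genes of other cells moved along with these differences. The summed level of 6 ductal markers (Krt19, Krt7, Epcam, Sox9, Spp1, Cldn4) ran from 33.0 through 282 to 355 CPM in high-risk livers, from 27.3 through 46.6 to 225 CPM in low-risk livers and from 35.7 through 42.3 to 269 CPM in vehicles. High-risk 22 and 1, lowest for Slc7a11, had the lowest ductal sums (33.0 and 69.9 CPM), and vehicles 6 and 4 had the highest of their group (269 and 118 CPM). Of these 6 markers 5 rose in high-risk against low-risk livers, as did 5 of 6 stellate markers (Col1a1, Col1a2, Col3a1, Dcn, Lrat, Des), with 1 lower. The stellate sum ran from 438 through 905 to 1205 CPM in high-risk and from 193 through 313 to 393 CPM in low-risk livers. Macrophage markers gave 3 higher and 3 lower of 10, endothelial markers 1 higher and 3 lower of 5, and B and plasma cell markers 2 higher of 5. Erythroid markers gave 1 lower of 5, hepatocyte markers 2 lower of 6 and intestinal markers 0 of 3 tested. The 4 pancreatic markers passed no filter here, with a summed median of 0.22 CPM in high-risk livers and a highest sum of 25.1 CPM. The part of these cells in the members' differences was not tested.

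At 10 months uninvolved liver of tumor-bearing mice was set against liver of low-risk mice. Besides Slc7a11, described without a test since these uninvolved livers entered its choice, Gpx2, Nqo1 and Osgin1 were called higher. There were 0 members called lower, and 6 did not pass. Uninvolved libraries stood apart from low-risk libraries in depth (34.8 to 44.6 against 26.4 to 33.5 M), genes detected (24676 to 28715 against 21663 to 22578) and mitochondrial counts (4.20 to 5.85% against 2.94 to 3.08%), and their mitochondrial counts also exceeded those of vehicles (at most 3.83%) and tumors (at most 3.46%). The part of these in the comparisons of uninvolved liver was not tested. The background was 52.4% of genes called, 27.7% higher and 24.7% lower, so that a call was common among all genes in this comparison.

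Slc7a11 stood at 2.50, 2.57, 2.93, 3.37 and 8.07 CPM in the 5 uninvolved samples and at 0, 0.0343, 0.202, 0.350 and 2.19 CPM in the 5 low-risk livers. The groups did not overlap, although low-risk 8 came close. Slc7a11 was 2.86 higher (log2, SE 0.75). Nqo1 stood at 8.50, 8.87, 9.56, 10.9 and 23.3 CPM against 4.63, 4.71, 5.83, 6.45 and 6.97 CPM, without overlap. Its difference was 1.09 (log2, SE 0.29, adjusted p = 0.0048). The share of all genes without overlap between these groups was not counted.

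Gpx2 stood at 0.945, 1.18, 1.74, 3.56 and 5.74 CPM in uninvolved samples and at 0, 0, 0.270, 0.389 and 0.677 CPM in low-risk livers. Every uninvolved sample was above every low-risk liver, by a fitted 3.34 (log2, SE 0.86, adjusted p = 0.0043). Osgin1 stood at 108, 164, 201, 212 and 256 CPM against 75.2, 95.2, 95.7, 138 and 158 CPM, and rose by 0.73 (log2, SE 0.24, adjusted p = 0.018). The Osgin1 groups overlapped, and the call ended without uninvolved 12 (0.60, adjusted p = 0.0506) and with no filter on low counts. Srxn1, at 43.2, 43.5, 47.9, 66.5 and 108 CPM against 41.3 to 47.8 CPM, did not pass (0.46, SE 0.20, adjusted p = 0.06), and it passed with DESeq2 (adjusted p = 0.0429), with libraries 3 and 6 as separate samples, and without uninvolved 1, 5 or 7.

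One uninvolved sample led most of the members. Uninvolved 3, the sum of libraries 3 and 6, was the highest of 5 for 7 members: Slc7a11, Nqo1, Srxn1, Txnrd1, Hmox1, G6pdx and Gpx2. Without it the fold change of Txnrd1 against low-risk livers was -0.20 (log2, SE 0.08) and passed as lower, with adjusted p = 0.0497, where it was -0.12 (SE 0.10) and did not pass with all samples. Ductal markers were higher than in low-risk livers in 6 of 6, stellate markers higher in 5 and lower in 1 of 6, and macrophage markers higher in 2 and lower in 7 of 10. Uninvolved 3 had a ductal sum of 196 CPM within a range of 106 to 212, and the part of these cells was not tested.

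Against 10-month vehicle livers, Gpx2, Nqo1, Osgin1 and Srxn1 were called higher in uninvolved liver. Slc7a11 is described only, since these livers entered its choice. Of all genes 57.7% were called, 31.2% higher and 26.5% lower. Slc7a11 was nearly undetected in vehicles, with 1 count in each of vehicles 1 and 7 and 0 in the other 4. Counts were summed over each group and taken relative to summed library totals, without TMM scaling. The ratio of uninvolved to vehicle for Slc7a11 was then 424 (exact 95% interval 117 to 3506, 1161 counts against 2), an interval that covers counting error only. For Gpx2 that ratio was 30.3 (19.2 to 50.5, 787 counts against 19). Uninvolved 3 gave 658 of the 1161 and 468 of the 787 counts, and without it the ratios were 274 (75.3 to 2265) for Slc7a11 and 18.3 (11.5 to 30.7) for Gpx2. Nqo1 was 0.93 higher (log2, SE 0.27, adjusted p = 0.0081), though in a fit of all 10-month groups it did not pass (adjusted p = 0.0716). Osgin1 was 0.93 higher (SE 0.23, adjusted p = 0.0024). Srxn1 was 0.55 higher (SE 0.19, adjusted p = 0.021), and without uninvolved 3 the difference was 0.25 (SE 0.12) and did not pass. The Srxn1 call also ended with no filter on low counts (0.53, adjusted p = 0.0687) and in the fit of all 10-month groups (0.53, adjusted p = 0.118). With a replicate block it ended too (0.45, adjusted p = 0.088). Without uninvolved 3, Txnrd1 passed as lower than in vehicles (-0.22, SE 0.08, adjusted p = 0.0252). With all samples Txnrd1 was -0.14 (SE 0.09) and did not pass. Adding the tumor-labelled vehicle library to the vehicles left Nqo1 and Osgin1 as the only members called.

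Low-risk and vehicle livers of 10 months gave 0 members called by edgeR and 0 by DESeq2, beside 0% of all genes. Slc7a11 was the 1 member with an unadjusted p under 0.05, beside 688 genes in all. It held 71 counts in the 5 low-risk livers against 2 in the 6 vehicles, and low-risk 8 alone gave 55 of the 71. Relative to summed library totals, without TMM scaling, the ratio was 40.4 (exact 95% interval 10.8 to 340). That interval covers counting error only, and these vehicles entered the choice of Slc7a11.

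The difference between exposed risk groups was then compared between ages: whether high-risk or uninvolved livers differed from low-risk livers by as much at 10 months as at 5 months. No member passed this interaction test by edgeR or by DESeq2, beside 0.448% of all genes (72 of 16084). Srxn1, Txnrd1 and Osgin1 had an unadjusted p under 0.05. The 10-month minus 5-month interaction of Srxn1 was -0.92 (log2, SE 0.31, adjusted p = 0.19). That of Slc7a11 was -3.16 (SE 1.07), which holds the 5-month difference the gene was chosen on and is given with no test. Without uninvolved 3 the interaction of Srxn1 passed, at -1.22 (SE 0.30, adjusted p = 0.0483).

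**Figure D3:**
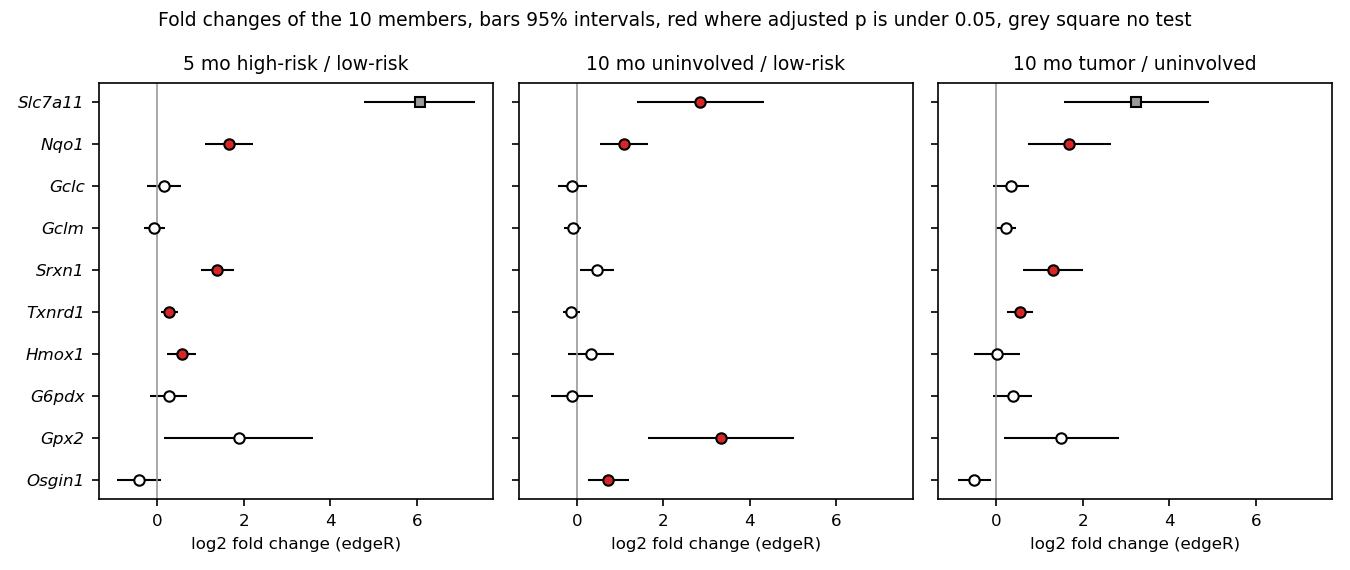
Log2 fold changes from edgeR (x) of the 10 genes (y) in 3 comparisons, where bars are 95% intervals, red points passed an adjusted p of 0.05 and grey squares mark Slc7a11 in comparisons it was chosen on. Its red point for uninvolved against low-risk liver is a description too, since the uninvolved livers entered its choice. Nqo1 is red in all 3 panels (1.66, 1.09 and 1.69), and Gclc, Gclm and G6pdx are open in all 3.

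Tumors were compared with uninvolved liver of tumor-bearing mice. Besides Slc7a11, which is described without a test, Nqo1, Srxn1 and Txnrd1 were called higher in tumors, none of the 9 others was called lower, and 6 did not pass. The background was 18.1% of genes called, 7.55% higher and 10.5% lower, and nothing is read from the members' count.

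In the 7 tumors Slc7a11 ran from 2.35 through 26.4 to 99.3 CPM. Tumor 7 (2.35 CPM) lay below every uninvolved sample, tumor 3 (5.51 CPM) within their range, and the other 5 above it. The fitted log2 fold change of Slc7a11 was 3.24 (SE 0.86). Nqo1 ran from 14.8 through 29.4 to 106 CPM in tumors, against 8.50 to 23.3 CPM in uninvolved liver, and was 1.69 higher (log2, SE 0.49, adjusted p = 0.031).

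Srxn1 ran from 60.6 through 167 to 235 CPM in tumors against 43.2 to 108 CPM in uninvolved liver, a difference of 1.32 (log2, SE 0.35, adjusted p = 0.023). Tumors 7, 12 and 3 overlapped the uninvolved range of Srxn1. Txnrd1 ran from 160 through 218 to 261 CPM against 116 to 176 CPM, a difference of 0.55 (log2, SE 0.15, adjusted p = 0.024). Gpx2 did not pass (1.51, SE 0.68, adjusted p = 0.13), nor did Osgin1 (-0.50, SE 0.19, adjusted p = 0.082), Gclc (0.35), Gclm (0.23), G6pdx (0.38) or Hmox1 (0.02).

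Some alternatives ended these 3 calls with little change in the differences. Without uninvolved 1, 5 or 7 none of the 3 passed, at 1.59 to 1.63 for Nqo1, 1.22 to 1.25 for Srxn1 and 0.50 to 0.55 for Txnrd1 (adjusted p from 0.0546 to 0.0816). Without uninvolved 1 Osgin1 passed as lower (-0.63, adjusted p = 0.0349). With no filter on low counts, Txnrd1 alone of the 3 passed. Nqo1 also missed the threshold without uninvolved 12 (1.66, adjusted p = 0.0546) or tumor 1 (1.62, adjusted p = 0.0545). Same-numbered tumor and uninvolved libraries share a number in their labels and were taken to come from the same mouse. With the mouse as a block over 6 pairs, none of the 3 passed (log2 differences of 1.04 for Nqo1, 0.99 for Srxn1 and 0.44 for Txnrd1, adjusted p from 0.083 to 0.0943). These 6 pairs hold uninvolved libraries 3 and 6 as separate mice, although their counts were nearly alike and they were summed elsewhere. The difference of Slc7a11 in that fit was 1.86. With the 4 pairs outside mice 3 and 6, Nqo1 (1.61, adjusted p = 0.0193) and Srxn1 (1.37, adjusted p = 0.044) passed.

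For these 4 mice the tumor was set beside the uninvolved liver labelled with the same number. Nqo1 was higher in 4 of 4 tumors, at 51.7 against 9.56 CPM in mouse 1, 39.6 against 8.50 in mouse 5, 14.8 against 8.87 in mouse 7 and 23 against 10.9 in mouse 12. Srxn1, Txnrd1, Gclm and Hmox1 were also higher in 4 of 4. Slc7a11 was higher in 3 of 4, at 99.3 against 2.57 CPM in mouse 5, and nearly equal in mouse 7, at 2.35 against 2.50 CPM. Osgin1 was higher in 1 of 4.

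Set against 10-month vehicle livers, tumors showed Gpx2, Nqo1, Srxn1, Txnrd1 and Osgin1 called higher, with Slc7a11 again described without a test. Of all genes 45.9% were called, 24.8% higher and 21% lower, and nothing is read from the members' count. All 7 tumors lay above all 6 vehicles for Slc7a11, Nqo1, Srxn1 and Gpx2. The share of all genes that separated in this way was not counted. Nqo1 was 2.65 higher (log2, SE 0.47, adjusted p = 0.00052), with vehicles at 4.20 through 5.51 to 10.6 CPM. Srxn1 was 1.89 higher (SE 0.29, adjusted p = 0.00019), with vehicles at 33.0 through 43.2 to 46.5 CPM.

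The largest ratios to vehicle were those of the genes that vehicle livers barely expressed. Counts were summed over each group and taken relative to summed library totals, without TMM scaling. On that scale Slc7a11 was 3693 times its vehicle value (exact 95% interval 1022 to 30500, 7760 counts against 2). Gpx2 was 78.6 times its vehicle value (50.1 to 131, 1568 counts against 19). With TMM scaling, mean levels were 37.3 against 0.0137 CPM for Slc7a11 and 7.54 against 0.124 CPM for Gpx2. Both intervals cover counting error only and not the spread between samples. Slc7a11 ran from 55 to 2957 counts among the tumors. Txnrd1 rose by 0.45 (log2, SE 0.12, adjusted p = 0.0053). Osgin1 rose by 0.47 (SE 0.17, adjusted p = 0.039), and 11 of the alternatives, among them leaving out tumor 3, 5, 7 or 11 or vehicle 1, 2 or 6, ended that call, at differences of 0.35 to 0.48. Gclc, Gclm, G6pdx and Hmox1 differed by 0.10, 0.08, 0.40 and 0.27 and did not pass.

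Ductal markers were higher in tumors too, and 6 of 6 rose against vehicles. Their sum ran from 147 through 268 to 769 CPM in tumors, from 106 to 212 CPM in uninvolved samples, and from 38.2 to 54.2 CPM in vehicles. Stellate markers gave 4 higher and 1 lower of 6 and macrophage markers 2 higher and 4 lower of 10 against vehicles. Against uninvolved liver 1 of the 6 ductal markers rose, and 0 of 6 stellate and 0 of 10 macrophage markers were called. Their part in the members' differences was not tested.

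The tumors differed from each other in an order that most members broadly shared. Across the 7 tumors, 6 of the 9 other members correlated with Slc7a11 on log2 CPM: Nqo1 (Pearson r 0.87, Spearman rho 0.89), Gclc (0.91, 0.96), Srxn1 (0.94, 0.93), Txnrd1 (0.92, 0.86), G6pdx (0.91, 0.86) and Gpx2 (0.90, 0.89). For each of these 6 the exact two-sided permutation p of Pearson's r, adjusted over the 9 pairs, was 0.0161 (unadjusted 0.0052 to 0.0107), and that of rho, adjusted, lay between 0.025 and 0.0357. Gclm, Hmox1 and Osgin1 had r of -0.08, -0.06 and -0.14. Without tumors 3 and 7, the 2 farthest from the Slc7a11 median, r over 5 tumors was 0.72 for Nqo1 and Gpx2, 0.96 for Gclc and between 0.82 and 0.86 for Srxn1, Txnrd1 and G6pdx.

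As a measure of how common this is, 1.67% of 13188 other genes averaging 1 CPM or above in tumors had r with Slc7a11 as high as the lowest of the 6. Gclc and G6pdx thus varied with Slc7a11 among tumors although neither passed a test between tumors and other liver. Gclc stood at 296, 381 and 423 CPM in tumors 3, 7 and 12, at 546 in tumor 6, and at 616, 687 and 692 in tumors 1, 11 and 5. Tumor 7 was the lowest of 7 for 7 members. The ductal marker sum was also lowest in tumor 7 (147 CPM) and highest in tumors 11, 1 and 5 (769, 555 and 432 CPM), and its part was not tested. This set of correlations was chosen after the data were seen.

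**Figure D4:**
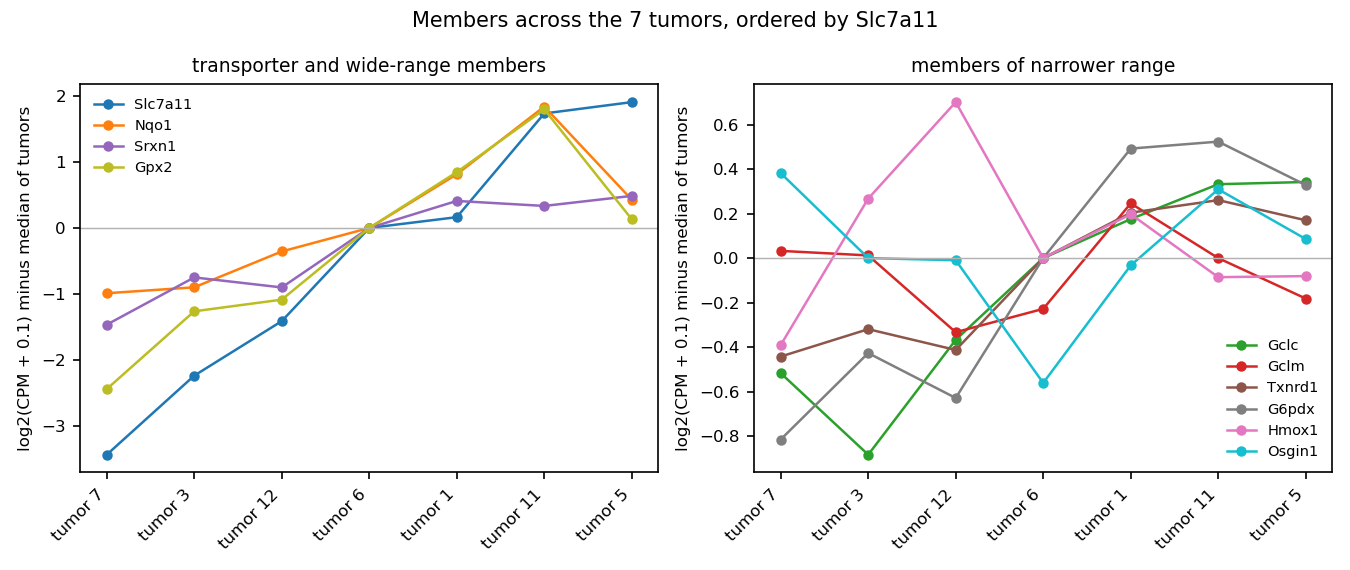
Log2(CPM + 0.1) of each gene minus its median over the 7 tumors (y) in each tumor, ordered by Slc7a11 (x), where each line is a gene. The 6 genes with adjusted p = 0.0161 rise broadly along this order, and Gclm, Hmox1 and Osgin1 do not. Nqo1, Txnrd1, G6pdx and Gpx2 are highest in tumor 11 and not in tumor 5, and Gclc is lowest in tumor 3.

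Among the 10 high-risk livers of 5 months the same 9 pairs gave no relation that passed. Srxn1 had the highest r with Slc7a11, at 0.86 (rho 0.53; permutation p = 0.0165 for r, 0.0829 adjusted), followed by Gpx2 at 0.74 and Txnrd1 at 0.73. Without high-risk 1 and 22 the r of Srxn1 was 0.33, so the relation rested on those livers. Within the 7 livers of batch 2, 0 of 9 pairs passed, and batch 1 held 3 high-risk livers, too few for a value.

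Vehicle livers of batch 1 give the course of these genes with age. From 3 weeks to 5 months 7 of 9 members tested were called, 5 higher and 2 lower, beside 24.2% of all genes (11.9% higher, 12.3% lower). Txnrd1 (log2 fold change 0.71, SE 0.11, adjusted p = 7.4e-05), Srxn1 (0.91, SE 0.22), Osgin1 (0.91, SE 0.22), Gclc (0.36, SE 0.12) and Gclm (0.36, SE 0.08) rose. G6pdx fell from a mean of 31.5 to 12.3 CPM (n = 7 and 7, log2 fold change -1.33, SE 0.23, adjusted p = 0.00016). Hmox1 fell from a mean of 51.4 to 25.8 CPM (-0.98, SE 0.20, adjusted p = 0.0012). Erythroid markers fell in 4 of 5 and rose in 1 over the same interval, endothelial markers fell in 5 of 5, macrophage markers in 6 of 10 and stellate markers in 4 of 6. Their part was not tested. Leaving out 3-week vehicle 2 or 4 ended the call of Gclc, at 0.34 and 0.35.

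From 5 to 10 months 3 of 9 members were called in vehicles, beside 14.1% of genes (6.68% higher, 7.41% lower). Gclc rose from a mean of 258 to 489 CPM (n = 7 and 6), and every 10-month vehicle was above every 5-month vehicle (0.86, SE 0.12, adjusted p = 0.00028). Gclm rose by 0.32 (SE 0.09, adjusted p = 0.018). Slc7a11 was called lower, from a mean of 1.77 CPM and a range of 0.0611 to 3.88 at 5 months to at most 0.0423 CPM at 10 months, and without 5-month vehicle 4 it did not pass the filter on low counts and was not tested. The 10-month vehicles entered the choice of Slc7a11, so its call here is not independent of that choice. Stellate markers fell in 3 of 6 and endothelial markers in 1 of 5, B and plasma cell markers rose in 1 of 5, and the other marker lists had none called; their part was not tested. Without 5-month vehicle 9, Srxn1 passed as lower (-0.64, SE 0.17, adjusted p = 0.00967), and without every technically deviating library Txnrd1 did too (-0.18, SE 0.07, adjusted p = 0.0488).

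Other genes of the same pathway were counted from lists written with earlier results known. Among regulators (10 genes), Nfe2l2, which encodes NRF2 itself, was 0.40 higher in high-risk than low-risk livers (log2, SE 0.11, adjusted p = 0.0046) and 0.58 higher in uninvolved than low-risk livers (SE 0.09). Sqstm1, whose product p62 sequesters KEAP1, was 0.45 higher in high-risk livers, and these were the 2 of 10 called there, where 20.3% of all genes were higher. In uninvolved against low-risk liver 2 of 10 regulators were higher (Nfe2l2 and Maff, a small MAF partner) and 5 lower, Rbx1 of the ubiquitin ligase by -0.59 and Keap1 by -0.37 (SE 0.09) among them, beside 27.7% of all genes higher and 24.7% lower. Tumors differed from uninvolved liver in 2 of 10, Rbx1 (0.68) and Bach1 (0.32), a repressor at the same elements, both higher, beside 7.55% of all genes higher.

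Of 24 other NRF2 targets, 13 were higher and 2 lower in high-risk against low-risk livers (20.3% and 18.5% of all genes), and 10 higher and 0 lower against vehicles (8.47% and 7.38%). In uninvolved liver 9 were higher and 4 lower against low-risk livers (27.7% and 24.7% of all genes), and 8 higher and 6 lower against vehicles (31.2% and 26.5%). In tumors 8 were higher and 0 lower against uninvolved liver (7.55% and 10.5% of all genes), and 12 higher and 1 lower against vehicles (24.8% and 21%). The glutathione transferases Gsta1 and Gstm3 and the carbonyl reductase Cbr3 were the largest in high-risk livers, at 3.99 (SE 0.80), 3.48 (SE 0.41) and 3.42 (SE 0.40). Gsta1, Cbr3 and the exporter Abcc4 led in tumors against uninvolved liver, at 2.44 (SE 0.69), 2.31 (SE 0.72) and 1.52 (SE 0.43). In uninvolved against low-risk liver Gstm3, Gsta1 and Gsta2 led, at 3.62 (SE 0.63), 3.05 (SE 0.55) and 2.30 (SE 0.34). Against vehicles Gstm3 led in uninvolved liver (4.10, SE 0.60) and Gsta1 in tumors (5.86, SE 0.67). Gsta1 and Gsta2 are near-identical genes whose reads may be split, so each is uncertain on its own. The median over the 24 was 0.63 in high-risk against low-risk livers (all genes -0.01) and 0.44 in tumors against uninvolved liver (all genes -0.01). It was 0.15 in uninvolved against low-risk liver (all genes 0.05) and 0.08 against vehicles (all genes 0.06).

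Of 12 genes of cysteine and glutathione supply and use, 5 were higher and 0 lower in high-risk against low-risk livers, beside 20.3% and 18.5% of all genes. Slc3a2, the heavy chain that carries the Slc7a11 product to the membrane, was 0.57 higher (SE 0.14, adjusted p = 0.0015), and the neutral amino acid carriers Slc1a4 and Slc1a5 were 1.44 (SE 0.23) and 1.08 (SE 0.25) higher. In uninvolved against low-risk liver 3 of 12 were higher, Ggt1, which cleaves extracellular glutathione, by 2.44 (SE 0.66), beside 27.7% of all genes. In tumors against uninvolved liver 1 of 12 passed, Aifm2, a ferroptosis suppressor, at 0.42 (SE 0.13), beside 7.55% of all genes higher, and Slc3a2 differed by -0.08 (SE 0.19).

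ATF4 targets were counted because Slc7a11 is among the genes ATF4 activates. In high-risk against low-risk livers 6 of 8 were higher, beside 20.3% of all genes, led by Psat1 (2.73, SE 0.33) and Phgdh (2.09, SE 0.43) of serine synthesis and the stress factor Atf3 (2.36, SE 0.41). The 1 lower was Atf4 itself, by -0.32 (SE 0.11, adjusted p = 0.0248). In uninvolved against low-risk liver 3 were higher, beside 27.7% of all genes, and Atf4 was again the 1 lower (-0.44, SE 0.10). In tumors against uninvolved liver 0 of 8 were called by edgeR, and against vehicles 5 were higher and 1 lower, beside 24.8% and 21% of all genes.

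Group means show which members keep a like pattern. Over the 9 groups of 5 or more samples, the mean log2 CPM of Slc7a11 had Pearson r of 0.95 with Gpx2, 0.92 with Srxn1 and 0.90 with Nqo1, and of 0.33 or less with Gclc, Gclm, Hmox1 and G6pdx. Gclc and Gclm, the subunits of 1 enzyme, had r of 0.94 with each other, and Hmox1 and G6pdx also had 0.94. Among 12330 genes, those most like Slc7a11 were Ajuba (r 0.997), Ttll1 (0.993), Ly6d (0.991), Lmna (0.989) and Cd9 (0.987). Those most like Nqo1 were Cstb (0.993), Mrgpre (0.985), Cybb (0.976), Cdc42se1 (0.976) and Tmem98 (0.974). These are descriptions over 9 group means, each group counted once whatever its size.

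The genes lie on 7 chromosomes of GRCm38 in the GENCODE M21 annotation: Slc7a11 at chr3:49892526-50443614 (minus strand), Gclm at chr3:122245557-122270732, Nqo1 at chr8:107388225-107403206, Hmox1 at chr8:75093621-75100589, Osgin1 at chr8:119434124-119446256, Srxn1 at chr2:152105516-152111376, Gclc at chr9:77754535-77794485, Txnrd1 at chr10:82833951-82897712, Gpx2 at chr12:76792333-76795554 and G6pdx at chrX:74409483-74429194. Nqo1, Gclc, Srxn1, Hmox1 and Osgin1 overlap no other annotated gene. Slc7a11, Gclm, Txnrd1, G6pdx (with Ikbkg) and Gpx2 (with Fntb) overlap others, each at least 1 of them on the opposite strand, and the strand setting of the counting was not given in the sources used here, so reads of the overlapping parts cannot be told apart. Counts were given per gene, with no separate values for exons and introns.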

How the data were processed

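RNA of 75 bulk liver libraries was measured as counts per gene. The authors deposited a table of whole-number counts whose name says featureCounts adjusted with ComBat-seq. Trim Galore, HISAT2, featureCounts and the build mm10 are named per the submitters' processing notes, without versions. Batch adjustment before deposit may have removed or added differences between groups that are uneven over batches, and its settings are not given in the sources used here. All columns were matched to samples (0 without one).

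Groups came from the labels. The test was edgeR's quasi-likelihood F test (version 4.0.16, R 4.3.3) in its robust form, after filterByExpr and TMM scaling (sequencing batch as covariate at 5 months, Benjamini-Hochberg adjustment over all genes tested, threshold 0.05), with DESeq2 1.42.0 as an alternative, and scripts were tested on simulated data. Levels are CPM with TMM scaling, and log2 values add 0.1 CPM. Count ratios between groups instead use summed counts over summed library totals, without TMM scaling. Exact 95% intervals of count ratios and correlations used scipy 1.17.1 in Python 3.11.15. P-values measure the spread between these samples only. The dams were exposed, and the labels name no dam or litter. Litter was therefore not modelled, and livers of the same litter would count as separate samples, which the p-values do not allow for. Same-numbered tumor and uninvolved libraries were taken to come from the same mouse because their labels share the number. Their deviations from group means correlated at 0.02, -0.05, -0.01, -0.26, 0.64 and 0.07 for mice 1, 3, 5, 6, 7 and 12. Only for number 7 was the same-numbered uninvolved library the best match of the tumor, so the pairing remains an assumption.

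The 10 members and all lists (NRF2 regulators, other NRF2 targets, cysteine and glutathione genes, ATF4 targets, and markers of 9 cell types or tissues) were chosen with earlier results of these data known. Pathway genes were named from up to 3 called genes per list and comparison, those with the largest absolute fold change and a mean of at least 1 CPM. Such genes are not named for every comparison. Keap1, Atf4 and Slc3a2 in tumors were named after their values were seen. The tumor-labelled vehicle library was left out of all main comparisons and was added to the vehicles only as an alternative. Alternatives covered scaling, filter, tool, batch, samples left out, summed libraries and replicate blocks.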

Additional observations from a re-analysis of the deposited data

Results flagged for a closer look

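Within a group of 4 to 10 samples, 8 of 80 sets of values held a sample separated from the rest by Dixon's criterion, which chance meets in about 5% of sets (1 in 20). Slc7a11 reached 2.19 CPM in 10-month low-risk 8 against 0.350 in the next liver, and 8.07 CPM in uninvolved 3 against 3.37. Nqo1 reached 23.3 CPM in uninvolved 3 against 10.9 and 106 CPM in tumor 11 against 51.7. Txnrd1 was lowest at 146 CPM in 10-month low-risk 4 and at 82.6 CPM in 3-week TBT 6. Gpx2 stood at 0.692 CPM in 3-week vehicle 1 against 0.0526 in the next liver. Osgin1 stood at 188 CPM in 5-month vehicle 1 against 115.

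The vehicle library labelled as a tumor, which entered no main comparison and has 14.1% mitochondrial counts, exceeded every 10-month vehicle in 4 members. Slc7a11 stood at 21.6 CPM there against at most 0.0423, Gclm at 257 against 247, Srxn1 at 68.4 against 46.5 and Gpx2 at 3.99 against 0.388.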

How the results depend on the processing

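Of 265 alternative counts of members called, 248 were within 1.5 times the reported one. Of 2536 recomputed member fold changes, 77 lost and 20 gained a call, 0 called values changed sign, and 15 of 37 calls were ended by no alternative. Leaving out 1 sample at a time, partly chosen after the data were seen, gave 0 to 4 members in tumors against uninvolved liver (reported 4), 0 to 1 in the age interaction (reported 0), 4 to 6 in high-risk against low-risk livers and 2 to 4 in vehicles from 5 to 10 months. In high-risk against low-risk livers, batch 1 alone gave 1 member and batch 2 alone 3, against 5. In high-risk against vehicle livers, no filter on low counts gave 1 and batch 1 alone 0, against 3. DESeq2 gave 1 in 5-month low-risk against vehicle livers. In uninvolved against vehicle liver, all 10-month groups in 1 fit gave 3, and adding the tumor-labelled vehicle library to the vehicles 2, against 5. No filter gave 1 in tumors against uninvolved liver. Vehicles from 5 to 10 months gave 5 without technically deviating libraries. These counts include Slc7a11, also in comparisons where it is described without a test. Calls over all genes are given below for some of these alternatives and for none with 1 sample left out. Nothing is therefore read from the members' counts, here or with the replicate block. The cause of these changes was not tested.

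With a replicate block, tumors against uninvolved liver gave 0 members over 6 pairs and 2 over 4 pairs, high-risk against vehicle livers 0, and vehicles from 5 to 10 months 1. Tumor and uninvolved samples were paired by the number in their labels only, and in no group were the numbers shown to pair animals.

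Over all genes, calls in high-risk against low-risk livers were 773 in batch 1 against 5745. In high-risk against vehicle livers they were 1211 with no filter, 1338 with 2 groups only, 68 with the block and 0 in batch 1, against 2341. With the tumor-labelled vehicle library among the vehicles they were 6019 against 9427 for uninvolved and 4206 against 7016 for tumors, and 4123 for the latter with the block. Tumors against uninvolved liver gave 5346 in a fit of all groups and 1889 with the block, against 2961. Vehicles from 3 weeks to 5 months gave 2172 with no filter and 5757 without deviating libraries, against 3616, and from 5 to 10 months 1128, 3438 with DESeq2 and 3700 without deviating libraries, against 2107. The age interaction gave 231 with DESeq2, 122 with uninvolved libraries 3 and 6 as separate samples and 4 with no filter, against 72. At under 1 CPM, Slc7a11 and Gpx2 rest on few counts in vehicle and low-risk livers, so their fold changes there are imprecise.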
